A study of Homo sapiens with 24 samples.

Results

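The genes described here are 44 matrix genes that encode no collagen: 10 laminin chains, 4 genes that link or fill basement membranes, fibronectin, 7 fibrillin, elastin and microfibril genes, 5 fibulins, 4 latent TGFβ binding proteins, 4 thrombospondins, 7 matricellular genes and 2 other matrix glycoproteins. They were taken by gene symbol from a given list, and all 44 were found among the 34834 genes to which a transcript of the tables could be matched. SK-MES1, an established cell line from a human lung squamous cell carcinoma, was deprived of growth factors for 3 h in both arms. One arm then received TGFβ1 at 2 ng/ml and the other received none. Each arm was sampled in triplicate (3 libraries) after 0, 8, 24 and 48 h, which makes 24 libraries in 8 groups. At 0 h the TGFβ1 had no time to act, so that time point shows how far the arms differ without it. The 8 groups share 1 cell line, and all groups of the TGFβ arm share 1 dose of TGFβ1. Because these are bulk samples, fewer cells that express a gene and less RNA of it per cell cannot be told apart.

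The extracellular matrix is the protein meshwork outside cells. Laminins are cross-shaped trimers of 1 alpha, 1 beta and 1 gamma chain that form the sheet of the basement membrane on which epithelial cells rest, with nidogens and perlecan as linkers. Fibronectin, fibrillins and elastin make the fibres of the looser matrix beyond it. Latent TGFβ binding proteins tie inactive TGFβ to fibrillin and fibronectin fibres, thrombospondin-1 can release it, and TGFβ in turn is a known inducer of many matrix genes, so these genes are both a store and a target of the cytokine.

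Library totals lay between 46613589 and 77964234 estimated counts. Levels are given as TPM, the transcript abundance unit of the tables, which corrects for transcript length and lets different genes be set side by side. Differences are given on the log2 scale, TGFβ1 minus untreated, with the standard error (SE) of limma voom, and a gene is said to have risen, fallen or been called where its Benjamini-Hochberg adjusted p was under 0.01 over all 17453 genes tested. The epithelial keratin genes KRT17, KRT8 and KRT18 and the squamous factor TP63 were expressed, whereas KRT5, KRT6A and KRT14, keratins of basal and squamous cells, were under 0.1 TPM on average. The sum of 10 epithelial and squamous markers ranged from 904 to 2080 TPM in untreated libraries and from 884 to 1910 TPM in the TGFβ arm. The sum of 8 fibroblast markers, of which 7 were over 1 TPM and COL1A2 under 0.1 TPM, ranged from 217 to 323 TPM in untreated libraries and from 198 to 2410 TPM in the TGFβ arm. Its highest value was thus larger in the TGFβ arm, and its part in the rises below was not tested. One of the 8, DCN, fell at 48 h (log2 difference -3.30 ± 0.141), so the sum does not stand for each marker. Endothelial markers summed to at most 4.66 TPM and blood markers to at most 4.19 TPM. Replicate 2 of both arms at 0 h and at 24 h lay furthest of its group's 3 libraries from the group mean over all genes, with root mean square deviations of 0.271 to 0.319 on the log2 scale against 0.211 to 0.278 in the other 20 libraries. The tables carry 4 file codes, of which an arm has 1 for its early libraries (0 and 8 h) and another for its late ones (24 and 48 h). Treatment and code therefore cannot be told apart in a comparison of the arms at any time, but a step from 0 to 8 h or from 24 to 48 h stays within 1 code per arm.

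In untreated cells at 0 h, 9 of the 44 genes were over 100 TPM, 16 between 10 and 100 TPM, 9 between 1 and 10 TPM and 10 under 1 TPM. The highest were TGFBI with 506 ± 15.8 TPM (SD, n = 3), THBS1 with 349.6 ± 20.0 TPM, FN1 with 287 ± 7.75 TPM, AGRN with 277 ± 39.9 TPM and LAMB3 with 257 ± 17.8 TPM. FN1 and AGRN lay within their spread of each other, and so did AGRN and LAMB3. After 48 h of TGFβ1 the order was TGFBI, THBS1, FN1, MFAP2 and LTBP3, with 1280 ± 22.8, 1106 ± 37.5, 724 ± 14.5, 520.0 ± 8.34 and 392 ± 9.29 TPM. In untreated cells at 48 h FN1 stood first with 397 ± 17.3 TPM and THBS1 second with 365 ± 16.6 TPM, within their spread of each other. The 44 genes together made up 0.297% of all TPM in untreated cells at 0 h and 0.31% at 48 h. In the TGFβ arm their share grew at every step, from 0.289% at the start through 0.474% (8 h) and 0.574% (24 h) to 0.657% at the end. Without the 5 highest genes of the last group, the other 39 went from 1599 ± 107 to 2547 ± 58.7 TPM in the TGFβ arm and from 1670 ± 89.9 to 1903 ± 73.6 TPM in untreated cells.

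Of the 44 genes 43 passed the count filter and were tested, and COMP was not. No gene of the list was called at 0 h, where 0% of all genes tested were called (limma voom; edgeR and DESeq2 also called 0 members), 2 of the 43 had an unadjusted p under 0.05, and 800 of all 17453 genes did. By an F-test of the 3 later time points together, 22 of the 43 were called and higher on average in the TGFβ arm, against 21% of all genes tested, and 8 were called and lower, against 21.5%. At 8 h 11 were higher and 2 lower, with backgrounds of 9.12% and 7.26%. At 24 h 18 were higher and 6 lower, with backgrounds of 15.4% and 13.8%. At 48 h 24 were higher and 6 lower, with backgrounds of 16.1% and 16.4%. The median log2 difference of the 43 genes was 0.0712, 0.0983 and 0.573 at the 3 time points, and that of all genes tested was -0.0162, -0.0153 and -0.0134. The higher share was thus above the background of all genes at each time point and grew from 8 h to 48 h, while the lower share was close to it or under it. The list was chosen with earlier results of these data known, so these shares describe the members and are no test of them. The background was not matched to the members by level. The TPM values of the arms did not overlap for 25 of the 43 genes at 8 h, 24 at 24 h and 34 at 48 h (58.1%, 55.8% and 79.1%), against 47.4%, 40.3% and 55.1% of all genes tested. Scaling the libraries to 3 reference genes in place of TMM factors, an alternative chosen after seeing the data, gave a median of all genes of 0.354 at 24 h and 0.377 at 48 h. With it 26 members were called higher and 2 lower at 24 h, against 46.2% and 4.09% of all genes tested, and 32 higher and 2 lower at 48 h, against 47.7% and 5.52%.

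**Figure D1:**
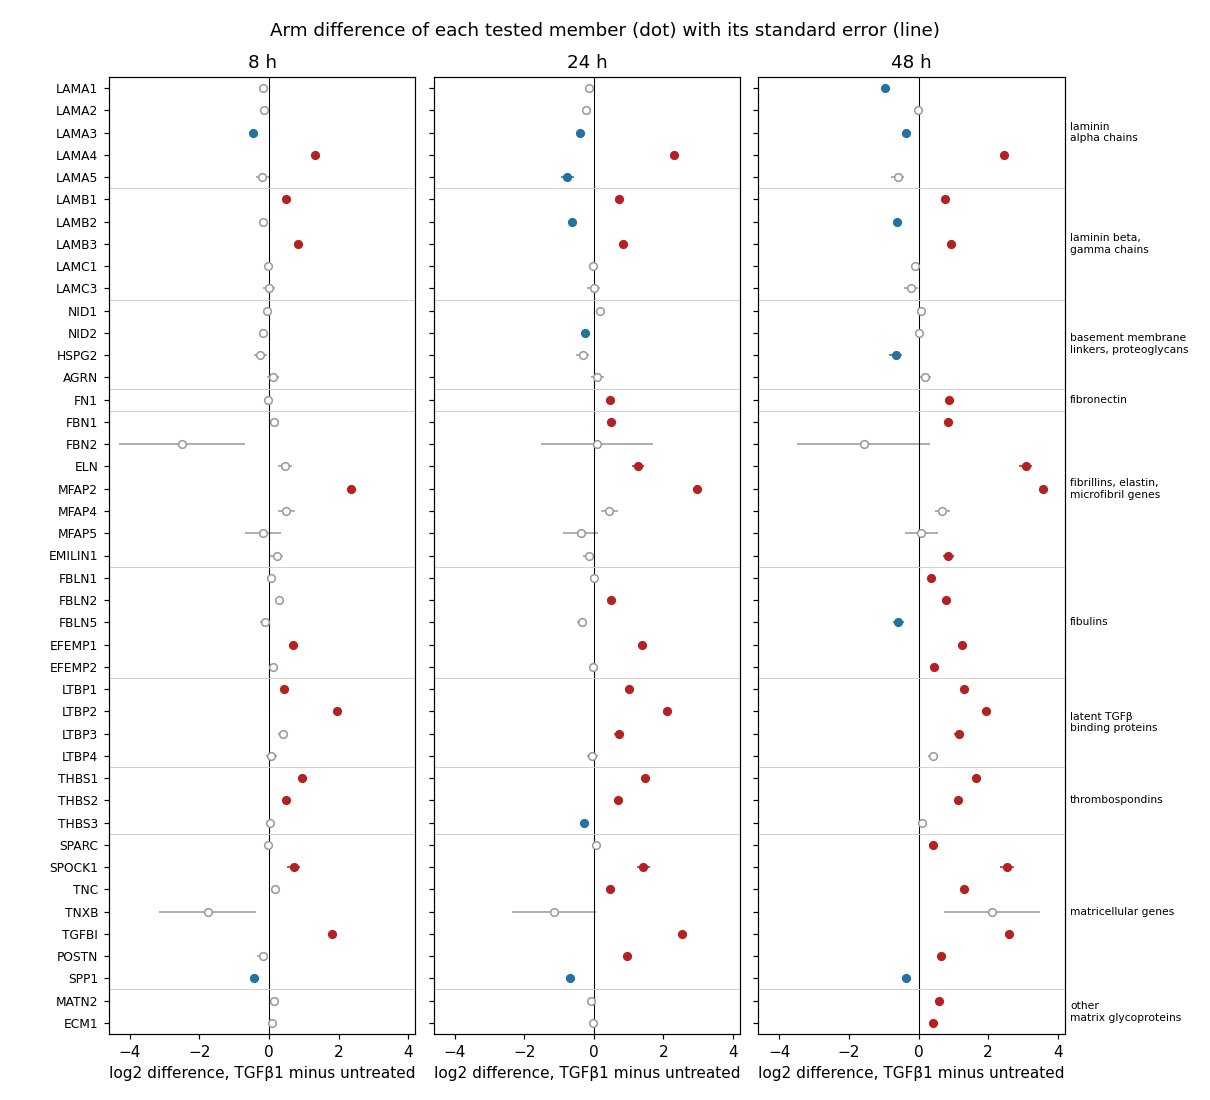
Log2 difference between the arms for the 43 tested genes (rows, grouped by role) at 8, 24 and 48 h (panels), each dot with its standard error from limma voom (3 libraries per group). Filled red dots were called higher and filled blue dots lower at adjusted p under 0.01, and open grey dots were not called. The number of red dots grows from 11 to 18 to 24, and the long bars belong to FBN2 and TNXB, whose TPM was near 0.

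By time course, 11 genes were higher at 8, 24 and 48 h: LAMA4, LAMB1, LAMB3, MFAP2, EFEMP1, LTBP1, LTBP2, THBS1, THBS2, SPOCK1 and TGFBI. A further 7 were called at 24 and 48 h and not at 8 h: FN1, FBN1, ELN, FBLN2, LTBP3, TNC and POSTN. Another 6 were called only at 48 h: EMILIN1, FBLN1, EFEMP2, SPARC, MATN2 and ECM1. LAMA3 and SPP1 were lower at all 3 time points, LAMB2 at 24 and 48 h, LAMA1, HSPG2 and FBLN5 only at 48 h, and LAMA5, NID2 and THBS3 only at 24 h, where NID2 and THBS3 turned slightly higher with reference-gene scaling, as LAMA3 and SPP1 did at 48 h. The remaining 10 tested genes, LAMA2, LAMC1, LAMC3, NID1, AGRN, FBN2, MFAP4, MFAP5, LTBP4 and TNXB, were not called at any of the 3. As a change from 0 h, the calls of EFEMP2, FBLN1, POSTN and SPARC at 48 h were among those lost, with only the libraries of 24 h those of LAMA5, LAMB2, NID2, FBLN2, LTBP3 and THBS3 at 24 h, and on both log2(TPM) scales those of ELN, FBN1, THBS2 and THBS3 at 24 h.

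The stretches of DNA before the start sites of the 3 genes with the largest rise and the 2 genes that fell at 8 h are shown because 8 h is the first time point at which the arms differed. They are the 250 bases before the RefSeq start (GRCh38.p14) in the direction of transcription. From LTBP2 and SPP1 the last 141 and 47 bases, which GENCODE places in an exon, are left out. Capitals mark CAGAC, a core of the SMAD element, and TGANTCA, the AP-1 element, on either strand.
MFAP2, chr1:16981584-16981833, minus strand: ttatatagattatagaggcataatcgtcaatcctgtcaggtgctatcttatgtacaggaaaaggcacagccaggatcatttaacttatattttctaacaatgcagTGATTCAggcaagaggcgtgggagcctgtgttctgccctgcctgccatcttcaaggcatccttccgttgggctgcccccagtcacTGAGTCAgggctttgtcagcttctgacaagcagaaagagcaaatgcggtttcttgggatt
LTBP2, chr14:74612379-74612487, minus strand: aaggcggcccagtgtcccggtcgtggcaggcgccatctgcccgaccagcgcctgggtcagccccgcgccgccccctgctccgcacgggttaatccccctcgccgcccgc
TGFBI, chr5:136028738-136028987, plus strand: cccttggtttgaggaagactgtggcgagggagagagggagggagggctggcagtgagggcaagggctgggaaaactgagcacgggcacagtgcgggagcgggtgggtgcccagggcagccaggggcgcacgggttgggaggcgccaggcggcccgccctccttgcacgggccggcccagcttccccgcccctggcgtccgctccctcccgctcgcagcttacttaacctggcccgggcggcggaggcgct
LAMA3, chr18:23872770-23873019, plus strand: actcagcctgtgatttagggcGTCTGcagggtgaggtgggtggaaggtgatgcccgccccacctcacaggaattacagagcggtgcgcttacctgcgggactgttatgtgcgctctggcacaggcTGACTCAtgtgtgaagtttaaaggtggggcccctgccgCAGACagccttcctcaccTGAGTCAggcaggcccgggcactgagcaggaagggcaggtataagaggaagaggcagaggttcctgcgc
SPP1, chr4:87975464-87975666, plus strand: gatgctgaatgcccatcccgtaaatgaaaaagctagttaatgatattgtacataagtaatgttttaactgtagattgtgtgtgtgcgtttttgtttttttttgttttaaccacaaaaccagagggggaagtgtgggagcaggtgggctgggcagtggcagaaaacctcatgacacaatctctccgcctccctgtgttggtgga
The letters TGANTCA stood at 2 places each before MFAP2 and LAMA3, and CAGAC at 2 places before LAMA3 and 1 before SPP1, where it is not in the stretch printed. No match stood before LTBP2 or TGFBI in the whole 250 bases searched. The start used for MFAP2 lies upstream of the GENCODE gene, and that of LAMA3 lies inside the gene, downstream of where its long transcripts start. Those long transcripts held 62.2% of LAMA3 TPM at 8 h in untreated cells and 62.5% with TGFβ1, and the bases before their start are not shown. Among 35116 promoters, CAGAC was found in 38% and TGANTCA in 6.57%. Of the 34 members with a promoter in the table, 18 held CAGAC and 4 held TGANTCA. Of the 9 members with a promoter that rose at 8 h, 4 held CAGAC and 1 held TGANTCA, and of the 24 tested members that did not rise, 13 and 3 did. These matches describe the letters only.

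Among the laminin alpha chains, which set what cell receptors a laminin binds, LAMA4 rose at every time point and LAMA3 fell at every one (at 24 and 48 h not with reference-gene scaling), so the 5 genes did not move together. LAMA4 (chr6:112107931-112254939, minus strand, GRCh38), the alpha chain of vessel and mesenchymal basement membranes, measured 7.48, 7.56 and 7.44 TPM in the untreated libraries at 8 h and 18.5, 17.3 and 20.1 TPM in the TGFβ libraries. At 24 h it measured 5.38, 5.46 and 5.15 TPM against 26.9, 27.6 and 25.8 TPM. At 48 h it measured 4.34, 4.56 and 3.63 TPM against 17.8, 18.3 and 18.4 TPM. The arms stood wholly apart each time, with log2 differences of 1.31 ± 0.0588, 2.30 ± 0.0604 and 2.44 ± 0.0656 (SE, adjusted p 2.9e-13, 1.8e-17 and 1.8e-17). Untreated cells lost LAMA4 over the same time, from 8.48 TPM at 0 h, while the TGFβ arm peaked at 24 h.

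LAMA3 (chr18:23689453-23956222, plus strand), the alpha chain of the laminin that anchors squamous epithelium, measured 44.5, 42.4 and 44.2 TPM at 8 h in untreated libraries and 29.3, 29.9 and 33.6 TPM with TGFβ1. At 24 h it measured 40.5, 42.9 and 39.9 TPM against 29.4, 33.9 and 29.6 TPM. At 48 h it measured 34.4, 31.3 and 32.7 TPM against 24.9, 25.1 and 25.3 TPM. The lowest untreated library was above the highest TGFβ library at each of these time points. Its log2 differences were -0.47 ± 0.0505, -0.39 ± 0.0509 and -0.37 ± 0.0520 (adjusted p 3.0e-07, 2.3e-06 and 4.7e-06). The falls at 24 and 48 h were not called as a change from 0 h or with reference-gene scaling, which gave -0.02 at 24 h and 0.02 at 48 h.

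LAMA1 (chr18:6941742-7117797, minus strand), an alpha chain of embryonic basement membranes, was near 1 TPM at 0 h in both arms. At 48 h it reached 2.80, 2.54 and 2.71 TPM in untreated libraries and 1.50, 1.32 and 1.50 TPM with TGFβ1, a log2 difference of -0.97 ± 0.0680 (adjusted p 1.5e-10). It rose in both arms from 0 h, 3.21-fold without and 1.87-fold with TGFβ1, and the arms were not called different at 8 or 24 h. LAMA5 (chr20:62307955-62367312, minus strand), the alpha chain most common in adult epithelia, measured 73.6, 54.7 and 69.0 TPM at 24 h in untreated libraries and 41.9, 29.6 and 43.7 TPM with TGFβ1. The groups did not overlap, and the log2 difference was -0.77 ± 0.186 (adjusted p 0.0023). Without replicate 2 of the TGFβ arm at 24 h it was -0.53 with an adjusted p of 0.02, without untreated replicate 1 or 3 at 24 h the adjusted p was 0.014 and 0.013, and as a change from 0 h it was 0.16. The call at 24 h was also lost with reference-gene scaling (-0.40, adjusted p 0.023) and with only the libraries of 24 h (adjusted p 0.032). At 8 and 48 h the differences of LAMA5 were -0.19 (adjusted p 0.54) and -0.60 (adjusted p 0.011) and were not called. At 8 h the TPM values of the arms did not overlap, the difference was -0.49 with length-scaled counts (adjusted p 0.075) and -0.53 with log2(TPM + 1) (adjusted p 0.05), and it was called with only the libraries of 8 h (adjusted p 6.8e-05). At 48 h it was called in some alternatives, among them DESeq2 (adjusted p 0.0044). LAMA2, the alpha chain of muscle, stayed between 2.39 and 3.22 TPM over all 8 groups and was not called between the arms. On the count scale it was called higher at 48 h than at 0 h in both arms. Its mean TPM in the TGFβ arm went the other way, from 3.22 to 2.39.

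The laminin beta and gamma chains also divided: LAMB1 and LAMB3 rose at all 3 time points, LAMB2 fell at 24 and 48 h, and the main gamma chain LAMC1 was not called. LAMB3 (chr1:209614870-209652425, minus strand), the beta chain that pairs with LAMA3, was 235 ± 8.64 TPM in untreated cells and 379 ± 19.1 TPM with TGFβ1 at 8 h, and 171 ± 3.00 against 299 ± 3.61 TPM at 48 h (SD, n = 3). Its log2 differences were 0.83 ± 0.0959, 0.85 ± 0.0973 and 0.93 ± 0.0992. The beta and alpha chain of the same laminin thus moved in opposite directions under TGFβ1, except that LAMA3 did not fall at 24 or 48 h with reference-gene scaling, with LAMB3 at 299 TPM and LAMA3 at 25.1 TPM after 48 h. LAMB1, the most widespread beta chain, went from 49.8 ± 1.76 to 86.7 ± 1.59 TPM in untreated cells and from 49.4 ± 2.59 to 142 ± 2.48 TPM in the TGFβ arm. Its log2 differences of 0.50, 0.73 and 0.75 had standard errors of at most 0.0316.

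LAMB2 (chr3:49121114-49133118, minus strand), a beta chain of muscle and kidney basement membranes, measured 117, 103 and 112 TPM in untreated libraries and 90.2, 70.6 and 80.8 TPM in TGFβ libraries at 24 h. At 48 h it measured 154, 137 and 134 TPM against 114, 112 and 105 TPM. It rose over time in both arms and rose less with TGFβ1, with log2 differences of -0.62 ± 0.114 and -0.61 ± 0.113 (adjusted p 0.00015 and 0.00013). With length-scaled counts the difference at 48 h was -0.33 (adjusted p 0.007), and as a change from 0 h the adjusted p was 0.02 at 24 h and 0.018 at 48 h. LAMC1, the gamma chain of most laminins, was 155 ± 4.67 TPM without and 136 ± 3.47 TPM with TGFβ1 at 48 h, with a log2 difference of -0.11 ± 0.0357 and an adjusted p of 0.015. LAMC3, a rarer gamma chain, was at or under 1.20 TPM in all groups.

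**Figure D2:**
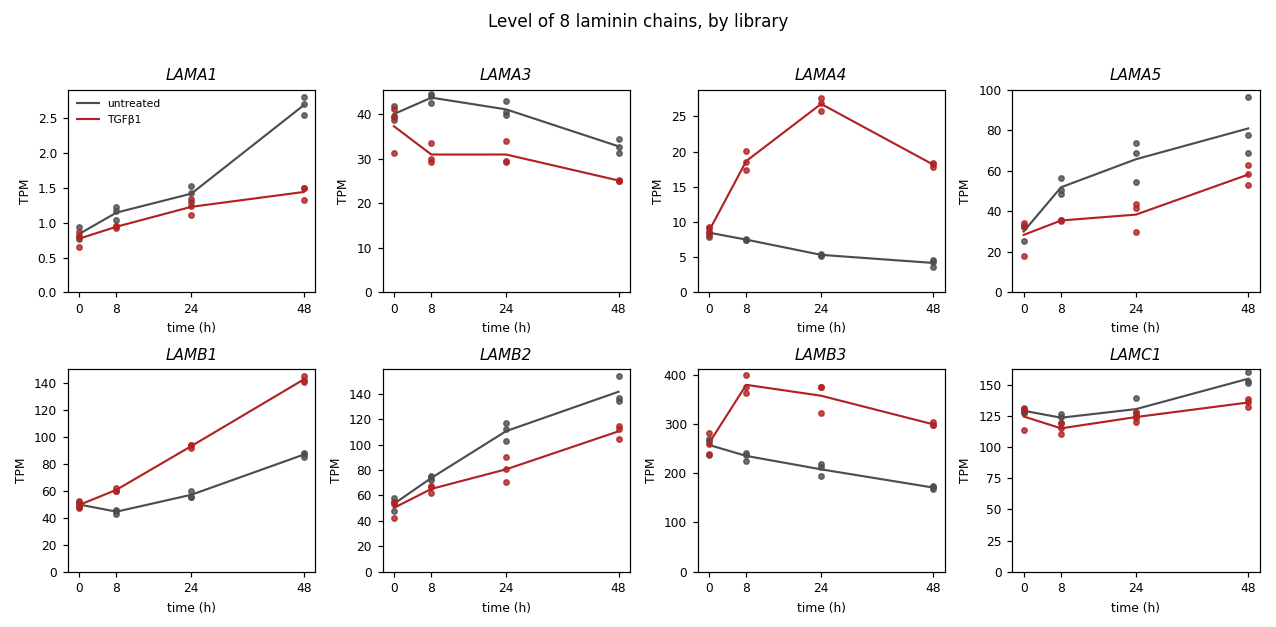
TPM of 8 laminin chains (panels, own y axis from 0) against time in hours, with 1 dot per library and lines through the means of 3 libraries (red, TGFβ1, and grey, untreated). Red LAMA4, LAMB1 and LAMB3 run above grey, LAMA3 and LAMB2 below, and LAMC1 slightly below at 48 h, where LAMA1 is furthest from grey.

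Of the basement membrane linkers and proteoglycans none rose, and NID2 at 24 h and HSPG2 at 48 h fell. HSPG2 (chr1:21822244-21937310, minus strand), which encodes the heparan sulfate proteoglycan perlecan, measured 41.0, 31.2 and 29.2 TPM in untreated libraries at 48 h and 21.7, 22.3 and 18.4 TPM with TGFβ1. The groups did not overlap, and the log2 difference was -0.66 ± 0.181 with an adjusted p of 0.0053. The call was lost without untreated replicate 1 (-0.53, adjusted p 0.039), untreated replicate 2 (0.011), TGFβ replicate 1 (0.012) or TGFβ replicate 3 (0.031) of 48 h, and as a change from 0 h the adjusted p was 0.2. With reference-gene scaling it was lost too (-0.27, adjusted p 0.11). NID2, a nidogen that bridges laminin and collagen networks, fell with time in both arms, from 47.4 to 18.3 TPM without and from 48.8 to 18.4 TPM with TGFβ1. The arms differed at 24 h by -0.25 ± 0.0494 (adjusted p 0.00039), a value of 0.12 with reference-gene scaling, and by 0.01 at 48 h. NID1, its close relative, stayed between 13.9 and 16.7 TPM. AGRN, agrin, was among the highest members in all groups, with 338 ± 30.9 TPM without and 377 ± 27.3 TPM with TGFβ1 at 48 h, a log2 difference of 0.19 ± 0.174.

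The standard error differed between members, also among those well expressed. Among the 24 members at 10 TPM or more in every group, the 11 with a GC content of 55% or more in their transcripts had a median SE of 0.113 at 48 h, and the 13 below had 0.0462. The SE ran from 0.0622 to 0.182 in the 11 and from 0.0303 to 0.199 in the 13, where SPOCK1 (48.1% GC) was the highest. The 24 were not matched by level. The GC-rich members include LAMA5, LAMB2, HSPG2, AGRN, LTBP3 and LTBP4. LAMA5 (65% GC) measured 34.4, 18.2 and 32.5 TPM in the 3 TGFβ libraries at 0 h, where replicate 2 is the lowest, and 35.5, 35.5 and 35.4 TPM at 8 h.

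FN1 (chr2:215360440-215436073, minus strand) encodes fibronectin, which cells assemble into fibres and bind through integrins. At 8 h it measured 349, 348 and 349 TPM in untreated libraries and 326, 325 and 351 TPM with TGFβ1, and the groups overlapped. At 24 h it measured 325, 313 and 327 TPM against 427, 460.1 and 433 TPM. By 48 h the values were 416, 392 and 383 without and 711, 739.5 and 720.1 TPM with TGFβ1. The arms were apart at both later times, with log2 differences of 0.47 ± 0.0492 and 0.88 ± 0.0484 (adjusted p 1.0e-07 and 2.9e-12) after -0.04 ± 0.0493 at 8 h. The difference grew from 8 to 24 h by 0.51 ± 0.0696 and from 24 to 48 h by 0.41 ± 0.0691 (adjusted p 2.8e-05 and 0.00029). Fibronectin was thus called later than LAMA4, TGFBI and MFAP2.

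Fibronectin mRNA is spliced at the EDA and EDB exons, each of which adds a module that is rare in plasma fibronectin and common in the fibronectin of moving cells. The EDA exon of 270 coding bases is shown because the share of transcripts with it was measured.
FN1 EDA exon, chr2:215380811-215381080, minus strand: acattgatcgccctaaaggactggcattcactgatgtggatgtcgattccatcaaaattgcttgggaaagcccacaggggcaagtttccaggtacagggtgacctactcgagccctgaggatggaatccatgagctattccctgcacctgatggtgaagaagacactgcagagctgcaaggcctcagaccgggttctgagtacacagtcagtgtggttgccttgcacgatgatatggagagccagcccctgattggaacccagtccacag
It is read from GRCh38 in the direction of transcription. Among FN1 transcripts that span it, those with EDA held 38.4%, 37.2% and 36.8% of the TPM in untreated libraries at 48 h and 44.8%, 45.4% and 45.0% with TGFβ1. The groups did not overlap at 48 h. Both had come down from 51.3% ± 0.903 (SD, n = 3) in untreated cells and 48.2% ± 1.79 in the TGFβ arm at 0 h. The libraries did not overlap at 0 h either, and there, before TGFβ1 had time to act, the TGFβ arm was the lower. At 8 h the shares were 50.4% ± 0.495 and 49.4% ± 0.0540, and at 24 h 47.6% ± 1.11 and 50.6% ± 1.35. The TGFβ libraries were all lower at 8 h, as at 0 h, and all higher at 24 h. Averaged over 8, 24 and 48 h the share was 3.19 percentage points higher with TGFβ1, with a two-sided exact permutation p of 0.0135 and 0.0675 after adjustment over the 5 shares tested, which misses 0.05. With estimated counts in place of TPM the difference was 4.03 points (exact permutation, adjusted p 0.015). In TPM, transcripts with EDA were at 142.5 ± 9.71 without and 314 ± 8.06 with TGFβ1 at 48 h, and those without it at 237 ± 7.68 and 383 ± 5.17. The share with EDB fell from 20.4% ± 1.26 at 0 h to 12.6% ± 0.197 at 48 h in untreated cells and from 18.7% ± 0.965 to 12.0% ± 0.332 in the TGFβ arm. Over the 3 time points the EDB share differed by -0.27 points between the arms (exact permutation p 0.548). kallisto divides reads among transcripts that share most of their sequence, and how this affects such shares was not tested.

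For the other genes with known forms the shares of TPM did not pass the test either. The long form of LTBP1, which starts at the upstream promoter and binds matrix more firmly, held 10.04%, 11.4% and 9.30% of LTBP1 TPM in untreated libraries at 48 h and 15.1%, 15.2% and 16.5% with TGFβ1, and these did not overlap. At 8 h the means were 9.39% ± 0.405 and 8.81% ± 1.11, in the other order and within their spread. Its mean difference over 8, 24 and 48 h was 1.97 points (exact permutation p 0.032, adjusted 0.08). In TPM the long form was at 4.22 ± 0.442 without and 15.7 ± 0.978 with TGFβ1 at 48 h, and the short forms were at 36.9 ± 0.849 and 84.7 ± 0.167. The share of long LAMA3 transcripts, which start upstream of the skin-type short form, differed by -1.09 points (exact permutation p 0.606) and was 68.3% ± 2.12 without and 66.0% ± 4.08 with TGFβ1 at 48 h. For FBLN1 only transcripts with the last coding exon of either the C or the D form were classed. Of their TPM, the C form held 60.6% ± 1.13 without and 54.8% ± 1.34 with TGFβ1 at 48 h, where the libraries did not overlap. At 8 h the C form was in the other order, 58.4% ± 1.12 without and 60.6% ± 0.746 with TGFβ1, also without overlap. Over 8, 24 and 48 h its share differed by -1.62 points (exact permutation p 0.1475, adjusted 0.246). Another transcript, with 14.3% of FBLN1 TPM without and 17.4% with TGFβ1 at 48 h, was in neither class.

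**Figure D3:**
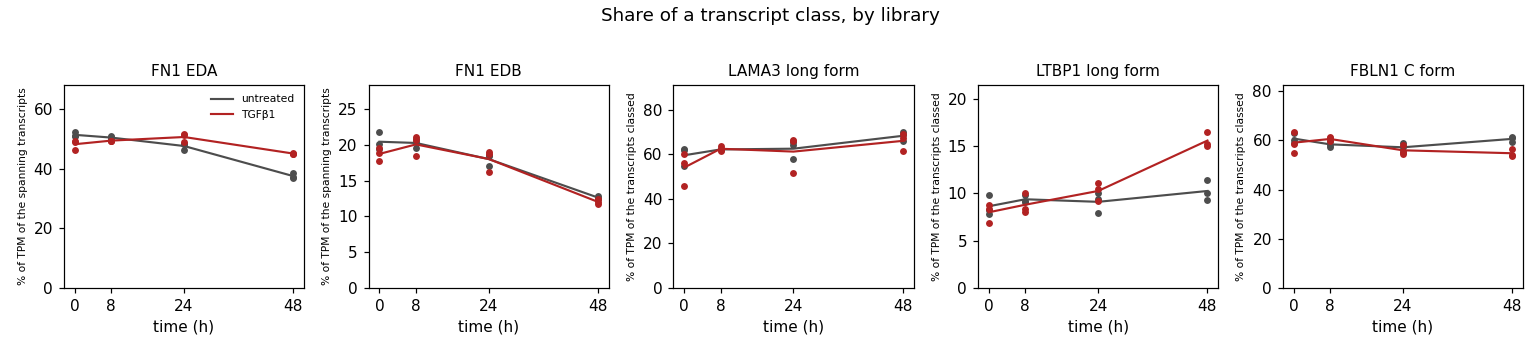
Share of TPM in 1 class of a gene's transcripts, in percent, against time in hours for 5 classes (panels, own y axis from 0), with 1 dot per library and lines through the means of 3 libraries (red, TGFβ1, and grey, untreated). The share is of the transcripts that span the exon for FN1 and of the C and D forms for FBLN1. Red and grey part at 48 h for FN1 EDA (45% against 37.5%), the LTBP1 long form (15.6% against 10.3%) and the FBLN1 C form (54.8% against 60.6%), and stay close for FN1 EDB. Red is below grey at 0 and 8 h for FN1 EDA, and above it at 8 h for the FBLN1 C form.

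Among the fibrillin, elastin and microfibril genes, MFAP2 rose at every time point, ELN and FBN1 at 24 and 48 h and EMILIN1 at 48 h, and none fell. MFAP2 (chr1:16974502-16980632, minus strand), a small glycoprotein of microfibrils that binds fibrillin, measured 37.2, 38.5 and 35.8 TPM in untreated libraries at 8 h and 184, 183 and 186 TPM with TGFβ1. The libraries of 24 h held 41.5, 40.5 and 45.6 without and 345, 282 and 349 TPM with TGFβ1. By 48 h the values were 47.3, 41.9 and 45.2 without and 527, 522 and 511 TPM with TGFβ1. Its log2 differences were the largest of the list at each time point, 2.37 ± 0.103, 2.96 ± 0.101 and 3.58 ± 0.1001 (adjusted p 1.8e-13, 1.4e-15 and 3.6e-17). Mean TPM was 4.95, 7.65 and 11.6 times that of untreated cells, in which the level stayed between 37.2 and 46.2 TPM.

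ELN (chr7:74027789-74069907, plus strand), elastin, the rubber-like core of elastic fibres, stayed near 1 TPM in untreated cells. At 48 h it measured 0.806, 0.940 and 1.20 TPM in untreated libraries and 3.51, 4.80 and 2.93 TPM with TGFβ1. The groups stood apart, with a log2 difference of 3.08 ± 0.178 on the count scale (adjusted p 6.7e-12). With counts scaled for transcript length it was 1.94 (adjusted p 3.6e-07), and the ratio of mean TPM was 3.81. At 24 h the difference was 1.26 ± 0.171 on the count scale and 0.77 with length-scaled counts, where its adjusted p was 0.015. FBN1, fibrillin-1, the backbone of microfibrils, started at 8.84 ± 1.05 TPM in the TGFβ arm and reached 22.7 ± 1.12 TPM by 48 h, against 13.3 ± 1.05 TPM in untreated cells, with log2 differences of 0.51 and 0.84 at 24 and 48 h. EMILIN1, found where elastin meets microfibrils, was 0.603 ± 0.0555 TPM without and 0.936 ± 0.137 TPM with TGFβ1 at 48 h. MFAP4 and MFAP5 were not called, with 0.693 and 1.17 TPM in the TGFβ arm at 48 h, and FBN2 was at or under 0.126 TPM in all groups.

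**Figure D4:**
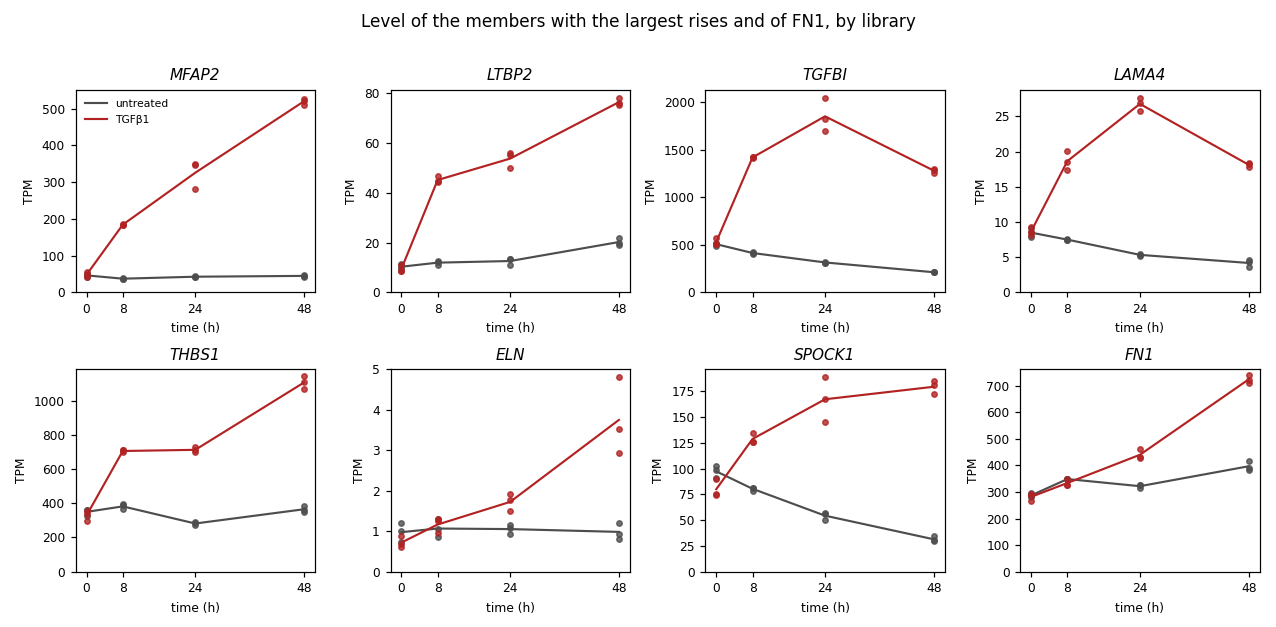
TPM of the 7 genes among the 5 largest rises at any time point, and of FN1, against time in hours (panels, own y axis from 0), with 1 dot per library and lines through the means of 3 libraries (red, TGFβ1, and grey, untreated). The dots of the arms overlap at 0 h except for SPOCK1. TGFBI and LAMA4 peak at 24 h, whereas MFAP2, THBS1, ELN and FN1 are highest at 48 h, and grey falls over time for TGFBI, LAMA4 and SPOCK1.

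Of the 5 fibulins, glycoproteins that join elastic fibres and basement membranes, 4 were higher at 48 h and FBLN5 was lower. EFEMP1, also called fibulin-3, rose from 8 h on. It was 81.3 ± 1.74 TPM without and 128 ± 4.11 TPM with TGFβ1 at 8 h, 88.6 ± 3.47 against 222 ± 5.40 TPM at 24 h and 152 ± 5.24 against 348 ± 9.74 TPM at 48 h, with log2 differences of 0.69, 1.38 and 1.24. Untreated cells lost EFEMP1 between 0 and 8 h and had regained it by 48 h. FBLN2 differed by 0.49 at 24 h and 0.80 at 48 h, and its call at 24 h was lost without untreated replicate 2 (adjusted p 0.011) or TGFβ replicate 1 (0.01) or 3 (0.012) of that time. FBLN1 and EFEMP2 differed by 0.37 and 0.43 at 48 h. FBLN1 had an adjusted p of 0.011 without TGFβ replicate 2, and EFEMP2 of 0.012 and 0.011 without TGFβ replicate 1 or 2. FBLN5 (chr14:91869411-91947987, minus strand), which elastic fibres need for assembly, measured 1.15, 1.27 and 1.20 TPM in untreated libraries at 48 h and 0.951, 0.735 and 0.758 TPM with TGFβ1, a log2 difference of -0.58 ± 0.155 (adjusted p 0.0042). Leaving out any of the 6 libraries of 48 h other than untreated replicate 1 ended that call, with adjusted p of 0.011 to 0.023, and it was also not called with length-scaled counts (-0.52, adjusted p 0.07) or reference-gene scaling (-0.20, adjusted p 0.33).

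Of the 4 latent TGFβ binding proteins, which fix latent TGFβ in the matrix or help to secrete it, LTBP1 and LTBP2 rose at all 3 time points, LTBP3 at 24 and 48 h, and LTBP4 was not called. Together they summed to 271 ± 23.3 TPM at 0 h and 690.5 ± 19.5 TPM at 48 h in the TGFβ arm, and to 284.5 ± 23.7 and 330.5 ± 18.9 TPM in untreated cells. LTBP2 (chr14:74498183-74612378, minus strand), a member that does not bind TGFβ itself, measured 12.1, 12.6 and 11.1 TPM in untreated libraries at 8 h and 46.6, 44.2 and 44.5 TPM with TGFβ1. The libraries of 24 h held 13.6, 10.9 and 13.2 without and 55.9, 50 and 55.1 TPM with TGFβ1. Its log2 differences at 8, 24 and 48 h were 1.94 ± 0.0655, 2.10 ± 0.0654 and 1.94 ± 0.0636. The change of its difference was 0.16 from 8 to 24 h and -0.16 from 24 to 48 h, and neither was called.

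LTBP1, which carries latent TGFβ to fibronectin and fibrillin, held its level in the TGFβ arm, 95.4 ± 7.40 TPM at 0 h and 100.4 ± 1.01 TPM at 48 h. In untreated cells it dropped from 98.1 ± 0.718 to 41.1 ± 0.694 TPM. The log2 differences of 0.44, 1.02 and 1.32 thus came with a decline in the untreated arm. In the TGFβ arm no change was called from 0 to 48 h (limma voom, adjusted p 0.96). A fall was called there from 24 to 48 h (-0.18 ± 0.0346, adjusted p 0.00028). LTBP3 rose in both arms, to 176 ± 13.4 TPM without and 392 ± 9.29 TPM with TGFβ1 at 48 h, a log2 difference of 1.17 ± 0.145. LTBP4 was 93.5 ± 4.82 TPM without and 122 ± 10.1 TPM with TGFβ1 at 48 h, with a log2 difference of 0.41 ± 0.153 and an adjusted p of 0.034, although its TPM values did not overlap at that time.

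Of the thrombospondins, THBS1 and THBS2 rose at each time point and THBS3 fell slightly at 24 h. THBS1 (chr15:39581079-39599466, plus strand), a secreted glycoprotein that can activate latent TGFβ, measured 387, 394 and 365 TPM in untreated libraries at 8 h and 709, 709 and 699 TPM with TGFβ1. The libraries of 24 h held 288, 274 and 282 without and 728, 699.5 and 710.2 TPM with TGFβ1. At 48 h the means were 365 ± 16.6 and 1106 ± 37.5 TPM. The log2 differences grew from 0.96 ± 0.0342 to 1.47 ± 0.0348 and 1.65 ± 0.0342, the first step being called (0.51 ± 0.0488, adjusted p 3.2e-07) and the second not (adjusted p 0.012). Untreated cells stayed between 282 and 382 TPM. THBS2, related to THBS1 but without its TGFβ-activating part, was at 1.22 ± 0.169 TPM without and 2.63 ± 0.190 TPM with TGFβ1 at 48 h, a log2 difference of 1.15 ± 0.105. Its call at 8 h (0.48) was lost without untreated replicate 1 or 3 or TGFβ replicate 1 of 8 h (adjusted p 0.016, 0.022 and 0.022), and with length-scaled counts its adjusted p was 0.045 at 8 h and 0.012 at 24 h.

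THBS3 (chr1:155195588-155209051, minus strand), a thrombospondin of bone and cartilage, measured 21.2, 19.0 and 21.7 TPM in untreated libraries and 17.9, 15.9 and 17.7 TPM in TGFβ libraries at 24 h. The log2 difference was -0.29 ± 0.0750 (adjusted p 0.004), and it was 0.08 with reference-gene scaling. It was not called without untreated replicate 1 or 3 or TGFβ replicate 2 of 24 h (adjusted p 0.018, 0.021 and 0.028). THBS3 rose 3.21-fold in untreated cells and 4.10-fold in the TGFβ arm over 48 h, so the change over time was larger than the gap between the arms. COMP, the cartilage thrombospondin, was at most 0.254 TPM in group means and was not tested.

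Matricellular genes encode secreted proteins that bind cells and matrix without building fibres. Of 7, TGFBI and SPOCK1 rose at each time point, TNC and POSTN at 24 and 48 h, SPARC at 48 h, and SPP1 fell at each (at 48 h not with reference-gene scaling). TGFBI (chr5:136028988-136063818, plus strand), named for its induction by TGFβ, measured 407, 424 and 410.2 TPM in untreated libraries at 8 h and 1418, 1421 and 1415 TPM with TGFβ1. The libraries of 24 h held 313, 322 and 309 without and 1694, 2040 and 1817 TPM with TGFβ1. By 48 h the values were 211, 212 and 211 without and 1254, 1287 and 1298 TPM with TGFβ1. The log2 differences were 1.82 ± 0.0322, 2.55 ± 0.0325 and 2.61 ± 0.0335 (adjusted p 9.2e-20, 1.4e-22 and 2.3e-22). TGFBI came down by 48 h in the TGFβ arm and throughout in untreated cells, so its difference held from 24 to 48 h while both levels fell.

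SPOCK1 (chr5:136975298-137598379, minus strand), a secreted proteoglycan of the SPARC family, measured 30.3, 29.4 and 34.5 TPM in untreated libraries at 48 h and 181, 184 and 172 TPM with TGFβ1. It went from 97.2 TPM down in untreated cells and from 80.0 TPM up in the TGFβ arm, with log2 differences of 0.71 ± 0.188, 1.43 ± 0.192 and 2.54 ± 0.199. At 0 h its TPM was already lower in the 3 libraries of the TGFβ arm, with no call (-0.36, adjusted p 1). Its adjusted p at 8 h was 0.0075, and it was between 0.011 and 0.039 without untreated replicate 3 of 0 h or any of the 6 libraries of 8 h. Its difference grew by 1.11 ± 0.277 from 24 to 48 h (adjusted p 0.0079). TNC, tenascin-C, a glycoprotein of wounds and tumour stroma, was 22.7 ± 0.622 TPM without and 54.2 ± 3.36 TPM with TGFβ1 at 48 h. It had dropped in both arms up to 24 h and then turned up with TGFβ1, and its difference grew by 0.84 ± 0.0926 from 24 to 48 h. POSTN, periostin, a matrix protein abundant in fibrotic tissue, rose between 8 and 24 h, from 1.04 ± 0.395 to 3.00 ± 0.316 TPM in the TGFβ arm. Its differences were -0.18, 0.95 and 0.65, and the last was not called with length-scaled counts (0.54, adjusted p 0.012).

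SPP1 (chr4:87975667-87983532, plus strand) encodes osteopontin, a secreted ligand of integrins and CD44. At 8 h it measured 298, 296 and 311 TPM in untreated libraries and 205, 208 and 227 TPM with TGFβ1. The libraries of 24 h held 351, 377 and 356 without and 213, 229.8 and 217 TPM with TGFβ1. The means at 48 h were 299.8 ± 7.91 and 229 ± 2.69 TPM. Its log2 differences were -0.44 ± 0.0456, -0.68 ± 0.0456 and -0.37 ± 0.0462. Untreated cells gained osteopontin mRNA between 0 and 8 h, from 164 TPM, and the TGFβ arm gained less, from 166 TPM. With reference-gene scaling the difference at 48 h was 0.03 (adjusted p 0.82). SPARC, a collagen-binding glycoprotein, rose over time in both arms and at 48 h was 6.38 ± 0.860 TPM without and 9.41 ± 0.459 TPM with TGFβ1, a log2 difference of 0.43. The call of SPARC was lost as a change from 0 h (0.33, adjusted p 0.1) and with log2(TPM + 0.1) (0.56, adjusted p 0.015). TNXB stayed at or under 0.160 TPM. It has a near-identical partial copy and transcripts on alternative haplotypes that were not matched, so its value is uncertain.

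**Figure D5:**
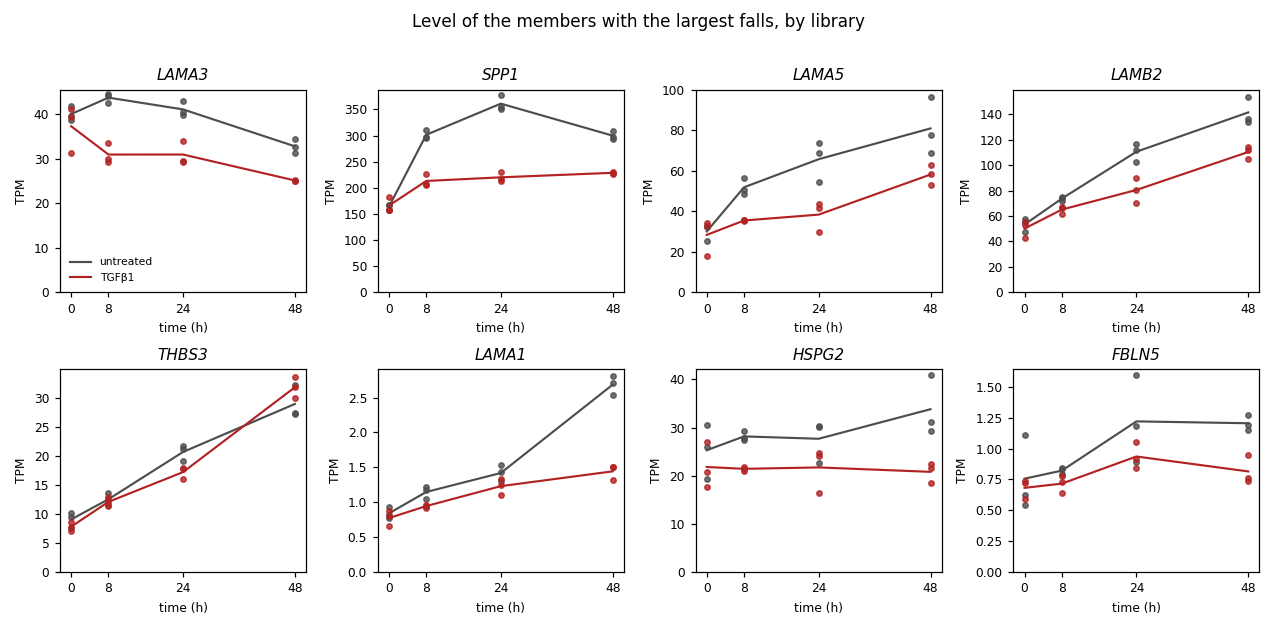
TPM of the 8 genes among the 5 largest falls at any time point against time in hours (panels, own y axis from 0), with 1 dot per library and lines through the means of 3 libraries (red, TGFβ1, and grey, untreated). For SPP1, LAMA5, LAMB2 and LAMA1 both lines end above their start and red ends lower. THBS3 crosses over by 48 h.

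MATN2, matrilin-2, and ECM1, a glycoprotein of skin matrix, were called at 48 h only, with log2 differences of 0.57 ± 0.0882 and 0.40 ± 0.0622. MATN2 was 2.41 ± 0.410 TPM without and 3.67 ± 0.742 TPM with TGFβ1. ECM1 was 29.8 ± 0.975 TPM against 38.9 ± 0.495 TPM, after 41.6 and 40.9 TPM at 24 h, and the larger step was the drop in untreated cells.

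The change within each arm places these differences. In untreated cells 18 members rose from 0 to 48 h and 10 fell, against 28% and 27.1% of all genes tested. In the TGFβ arm 29 rose and 3 fell, against 29.8% and 28.1%. The 29 include LAMA2, called on the count scale, whose mean TPM went from 3.22 to 2.39. The contrasts from 0 to 48 h cross the file codes, whereas the next ones stay within 1 code per arm. From 0 to 8 h 6 members rose and 8 fell without TGFβ1, with backgrounds of 13.2% and 12.7%, and 13 rose and 4 fell with it, with backgrounds of 17.5% and 16.3%. From 24 to 48 h 11 rose and 9 fell without TGFβ1, with backgrounds of 14.7% and 13.6%, and 19 rose and 5 fell with it, with backgrounds of 12.4% and 13.4%. Of the 24 members higher at 48 h, 10 had risen in both arms from 0 h, 7 in the TGFβ arm alone by the calls, and 4 (LAMA4, SPOCK1, TNC and TGFBI) had risen with TGFβ1 and fallen without it. LAMB3, LTBP1 and ECM1 had fallen in untreated cells with no call in the TGFβ arm. Of the 6 lower at 48 h, LAMA1, LAMB2 and SPP1 had risen in both arms, FBLN5 had risen in untreated cells, HSPG2 was not called in either arm, and LAMA3 had fallen in both. LAMA3 was thus the one lower gene of the 6 whose level in the TGFβ arm was called below its own start.

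The change of the arm difference itself was tested between neighbouring times. From 0 to 8 h, a step within 1 file code per arm, the difference of 10 members rose and that of 2 fell, against 5.05% and 2.84% of all genes. The 10 were MFAP2 (2.30), LTBP2 (2.00), TGFBI (1.78), LAMA4 (1.37), SPOCK1, THBS1, LAMB3, EFEMP1, LAMB1 and LTBP1, and the 2 were LAMA3 (-0.34) and SPP1 (-0.48). All 12 are genes called at 8 h, so of those 13 only THBS2 was not called in this step (adjusted p 0.032). From 8 to 24 h it rose for 10 members and fell for 0, against 4.14% and 2.54%, with POSTN (1.13) and LAMA4 (0.99) the largest. One member was called lower in that step by DESeq2, 18 of 43 had an unadjusted p under 0.05 in limma voom in either direction (23.6% of all genes did), and 1 was lower without TGFβ replicate 2 of 0 h. From 24 to 48 h, again within 1 code per arm, it rose for 11 and fell for 1, LAMA1, against 3.5% and 5.61%. ELN (1.82), SPOCK1 (1.11), EMILIN1 (0.99) and TNC (0.84) had the largest rises of that step. The higher share of the members was above the background of all genes in each of the 3 steps. As above, the list was chosen with earlier results known, and the background was not matched by level.

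Other matrix genes moved in both directions. Of 60 further matrix glycoproteins 54 were tested, and 13 rose and 5 fell at 8 h, 17 and 11 at 24 h, and 16 and 18 at 48 h. Of 29 proteoglycan genes 24 were tested, and 5 rose and 2 fell at 8 h, 8 and 5 at 24 h, and 8 and 9 at 48 h. Of all genes tested 9.12% rose and 7.26% fell at 8 h, 15.4% and 13.8% at 24 h, and 16.1% and 16.4% at 48 h. The median log2 differences of the 2 lists at 48 h were -0.0824 and -0.161. The largest rises at 48 h were BGN, biglycan, at 1.03 ± 0.103 TPM without and 106 ± 10.5 TPM with TGFβ1 (6.66 ± 0.179), GPC6 (2.47) and MATN3 (2.27). The largest falls were DCN, decorin, at 12.2 ± 1.13 against 1.47 ± 0.327 TPM (-3.30 ± 0.141), SLIT2 (-1.91) and CCN3 (-1.85). Biglycan and decorin, closely related small proteoglycans, thus lay at opposite ends, and decorin is also one of the 8 fibroblast markers listed above.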

How the data were processed

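Total RNA of 24 SK-MES1 cultures was sequenced on an Illumina instrument. The authors quantified the reads with kallisto 0.43.0 against Ensembl transcripts of GRCh38 and deposited 1 table per library with estimated counts (not normalized) and TPM (estimated counts per effective length, scaled to the same total in every library) for each transcript. The estimated counts summed to between 46613589 and 77964234 per library.

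From these tables, transcripts were assigned to genes with GENCODE release 44. Of 173259 transcripts 155518 matched, holding 94.82% to 95.18% of the counts of a library. Gene sums were rounded, and genes with at least 10 in 3 or more libraries (17453) were tested with limma voom (limma 3.58.1, TMM factors of edgeR 4.0.16, R 4.3.3) on 8 group means, with adjusted p under 0.01 as the threshold. On simulated data with 200 changed genes among 17183, the F-test over 8, 24 and 48 h recovered 187 with 1 false call. The 8 h comparison recovered 175 with 7 false calls. In the libraries themselves the F-test called 21% of all genes tested higher and 21.5% lower. Recovery with that large a share of changed genes was not tested, nor was the rate of false calls. Replicates are those of the labels, and p-values measure the spread between these libraries of 1 cell line. Splice and start forms were compared as shares of TPM by two-sided exact permutation of the arms within time points. Changes within an arm from 0 to 48 h were added after the data were seen.

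The members and gene lists were chosen with earlier results of these data known. Library values are given for the 5 largest rises and the 5 largest falls at each time point among members with adjusted p under 0.01 and at least 1 TPM in some group, and other matrix genes are named for the 3 largest rises and the 3 largest falls at 48 h by the same limits. FN1 at 8, 24 and 48 h, and some members of the smaller groups, are described beside them. Alternatives were edgeR's quasi-likelihood test, DESeq2 1.42.0, other library scalings (among them the summed counts of GUSB, HPRT1 and GAPDH, called reference-gene scaling, added after the data were seen in place of a planned set that is not reported here), length-scaled counts, log2(TPM + 1) and log2(TPM + 0.1), other count filters, a replicate block, fits on single time points, the change from 0 h, and each library left out.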

Additional observations from a re-analysis of the deposited data

Results flagged for a closer look

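The results here are those in which the difference between the arms itself changed between neighbouring time points, by limma voom with adjusted p under 0.01. Between 8 and 24 h the log2 difference rose for POSTN by 1.13, LAMA4 by 0.99, TGFBI by 0.73, EFEMP1 by 0.69, MFAP2 by 0.59, LTBP1 by 0.58, FN1 by 0.51, THBS1 by 0.51, FBN1 by 0.36 and LAMB1 by 0.23. This step crosses the file codes in both arms, and code and time cannot be told apart in it.

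Between 24 and 48 h, within 1 file code per arm, the log2 difference rose for ELN by 1.82, SPOCK1 by 1.11, EMILIN1 by 0.99, TNC by 0.84, MATN2 by 0.64, MFAP2 by 0.62, FN1 by 0.41, ECM1 by 0.41, FBN1 by 0.33, SPP1 by 0.31 and LTBP1 by 0.30. The value of SPP1 is a smaller deficit in the TGFβ arm. For LAMA1 the change was -0.82. FN1, FBN1, MFAP2 and LTBP1 were called in both steps.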

How the results depend on the processing

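Of 129 member differences at 8, 24 and 48 h, 67 were called, and 46 of these kept direction and call in all 38 alternatives, whereas 21 lost the call in some, 4 of them with a change of direction. With reference-gene scaling, chosen after seeing the data, members lower went from 8 to 4 in the F-test, to 2 at 24 h and to 2 at 48 h, and the arm difference rose for 20 members from 8 to 24 h. It turned the direction of LAMC1 (0.349), NID2 (0.124), EFEMP2 (0.358), THBS3 (0.081) and ECM1 (0.358) at 24 h and of LAMA2 (0.364), LAMA3 (0.018), LAMC1 (0.279) and SPP1 (0.026) at 48 h. The reference-gene scaling first planned was left out. As a change from 0 h, members lower were 4 in the F-test, 1 at 24 h and 3 at 48 h, against 7.02% and 10.2% of all genes at 24 and 48 h. With only the libraries of the time point, 6 were lower at 8 h and 2 at 24 h, against 14% and 7.05% of all genes tested (7.26% and 13.8% with all libraries). From 24 to 48 h the difference rose for 7 members with length-scaled counts and for 7 with log2(TPM + 0.1), which called 0 lower. From 8 to 24 h 1 member was lower with DESeq2, with at least 10 counts in all libraries, and without TGFβ replicate 2 of 0 h. The EDA share differed by 4.03 points (adjusted p 0.015, exact permutation) from estimated counts. The cause of these shifts was not tested. For the F-test and the steps from 8 to 24 h and from 24 to 48 h, shares of all genes were not taken in the alternatives.

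Leaving out 1 library at a time gave 20 to 24 members higher and 6 to 10 lower in the F-test, 9 to 12 and 2 to 3 at 8 h, 17 to 18 and 4 to 7 at 24 h, 23 to 25 and 4 to 8 at 48 h, and 0 at 0 h. Of all genes tested these fits called 7.33% to 10.2% higher and 5.19% to 8.39% lower at 8 h. At 24 h they called 13% to 17% higher and 11.6% to 15.3% lower, and at 48 h 13.7% to 17.6% and 13.9% to 17.9%. The difference rose for 9 to 10 members and fell for 0 to 1 from 8 to 24 h, and rose for 8 to 13 and fell for 1 from 24 to 48 h. Shares ranged from 2.98 to 3.45 points for EDA, -0.44 to 0.02 for EDB, -1.92 to 0.52 for long LAMA3, 1.76 to 2.17 for long LTBP1 and -1.99 to -1.35 for the C form of FBLN1.

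Same-numbered libraries of the arms deviated together at 0 h (correlations 0.072 to 0.296) and 24 h (0.089 to 0.301) and not at 8 h (-0.047 to -0.009) or 48 h (-0.016 to 0.092), so the numbers were not taken as pairs. With the replicate number as a block, 24 members were higher and 9 lower in the F-test, 11 and 2 at 8 h, 18 and 6 at 24 h, 25 and 7 at 48 h, and 0 at 0 h. Of all genes tested the block called 10.1% higher and 8.22% lower at 8 h, 17.1% and 15.3% at 24 h, and 17.7% and 18% at 48 h. Under the block the difference rose for 10 and fell for 0 from 8 to 24 h, and rose for 12 and fell for 1 from 24 to 48 h. The block lost 0 calls and added LAMA5 (-0.596, adjusted p 0.0021) and LTBP4 (0.416, adjusted p 0.0097) at 48 h. Members under 1 TPM rest on few counts, which limits their precision.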
